A study of Mus musculus with 45 samples.

Results

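Otx2, Pou3f1, Sox4 and Sall2 are transcription factor genes of the mouse epiblast around the time it passes from the formative to the primed state of pluripotency. They were followed as 4 genes, chosen by symbol, among the 15997 genes listed over the 3 expression tables of the study. All 4 had a value in each table. The study sequenced RNA along the proximal-distal axis of untreated mouse embryos at 3 ages shortly after implantation, E5.25, E5.5 and then E5.75, taken fresh from the decidua and frozen. Numbered sections were cut out with a laser microscope, and Smart-seq2, which copies whole transcripts from traces of RNA, gave the libraries. The labels give no strain, genotype or sex. They speak of the embryo of a stage in the singular and give no number of embryos, and nothing repeats a section. The p-values below therefore compare sections, not embryos.

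The E5.25 group had 7 sections (1, 2, 3, 4, 6, 7 and 8) and the E5.5 group had 9 section numbers (1, 2 and 4 to 10). The E5.75 group had 17 sections (1 to 8, 10 to 12 and 14 to 19) and 2 further libraries labelled VE, for section numbers 6 and 7. VE usually stands for visceral endoderm. E5.75 sections 9 and 13 are not analysed here. At E5.5 most sections were labelled as parts A and B, which the table holds joined. Only section 10 had a column for each part, and these were averaged. The labels do not give the end at which section 1 lies, so position is given as section number. Values are levels on the log2(FPKM + 1) scale, where FPKM, fragments scaled by transcript length and library total, sets genes of unlike length on one footing. Between 2046 and 8217 genes reached an FPKM of 1 in a section, and low-numbered sections were at the poor end in each stage. The VE libraries had 1496 and 2147 such genes. A zero is therefore given as a listing of 0 and not as absence. Depth of sequencing is unknown, since no counts were given.

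After implantation the epiblast leaves naive pluripotency, builds an epithelium and becomes able to respond to the signals that pattern it. OTX2, a homeodomain factor, is known to move OCT4 to new enhancers during this transition, and in the embryo it also acts in the anterior visceral endoderm. POU3F1 (OCT6) is a POU factor of embryonic stem cells and epiblast, and it promotes neural fate later on. SOX4 belongs to the SOXC group of HMG box factors with SOX11 and SOX12. SALL2 is a zinc finger factor of the spalt family, to which SALL1, SALL3 and SALL4 also belong. Otx2 and Pou3f1 are standard markers of the formative and primed epiblast. On the extraembryonic side lie the extraembryonic ectoderm and the ectoplacental cone, both parts of the trophoblast lineage.

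In the mouse genome (GRCm38, which is mm10, GENCODE M21), Otx2 lies on the minus strand of chromosome 14, from 48657677 to 48673819, with 11 annotated transcripts of 2 to 6 exons. Pou3f1 is a gene of 1 exon on the plus strand of chromosome 4, from 124656807 to 124660655. Sox4, also of 1 exon, lies on the minus strand of chromosome 13, from 28948919 to 28953713. Sall2 lies on the minus strand of chromosome 14, from 52311172 to 52328762, with 2 transcripts of 2 exons. Whether counting used the strand is not given in the sources used here. The opposite-strand RNA Gm26735 covers 54.6% of the exonic bases of Sox4, Gm2164 covers 8.57% of those of Pou3f1, and Otx2os1 covers 3.65% of those of Otx2. On the same strand Gm49154 shares 3.98% of the Otx2 bases. No other gene overlaps Sall2 exons, and none of these RNAs was listed in any of the tables. Reads of Sox4 and of Gm26735 cannot be told apart here.

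Otx2, Sox4 and Sall2 had their largest drop between the same sections of E5.75, as described below, and their promoters are shown for that reason. The RefSeq promoter table (GRCm38.p6) matched 3 of the 4 genes, with 4 starts of Otx2, 1 of Sox4 and 2 of Sall2. It has no entry for Pou3f1, so no promoter of that gene was examined. Each line gives the 250 bases before a start, 5′ to 3′, on the minus strand. Shown are the Otx2 start at chr14:48665110-48665359, the Sox4 start at chr13:28953700-28953949 and the outermost Sall2 start at chr14:52328671-52328920.
Otx2: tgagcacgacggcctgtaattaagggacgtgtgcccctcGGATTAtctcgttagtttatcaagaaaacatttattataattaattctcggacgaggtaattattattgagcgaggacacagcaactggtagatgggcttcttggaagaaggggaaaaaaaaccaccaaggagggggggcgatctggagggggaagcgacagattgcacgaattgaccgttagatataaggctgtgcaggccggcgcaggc
Sox4: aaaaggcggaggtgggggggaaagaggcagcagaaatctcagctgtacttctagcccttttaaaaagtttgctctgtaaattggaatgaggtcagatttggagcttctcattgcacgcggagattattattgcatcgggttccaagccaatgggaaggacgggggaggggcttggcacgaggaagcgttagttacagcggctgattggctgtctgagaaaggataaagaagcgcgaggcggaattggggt
Sall2: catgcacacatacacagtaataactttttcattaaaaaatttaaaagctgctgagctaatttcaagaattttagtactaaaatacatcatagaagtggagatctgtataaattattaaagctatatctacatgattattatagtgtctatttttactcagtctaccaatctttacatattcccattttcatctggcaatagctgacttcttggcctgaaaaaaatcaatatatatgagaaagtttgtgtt
Capitals mark the single motif match. TAATCC, the core bound by OTX homeodomains, ATGCAAAT, the octamer bound by POU factors, and ACAAAG, a SOX core, were searched on both strands of the 7 promoters, from 250 bases before to 50 after each start. TAATCC was found once, on the opposite strand of the Otx2 start shown, beginning 211 bases before it and overlapping no other match, and the capitals read GGATTA, its reverse complement. Of 32851 mouse promoters in the table, 7.06% hold TAATCC, 1.74% ATGCAAAT and 18.7% ACAAAG. The stretch before the Sall2 start shown was poor in G and C, with 28.0% of bases. It was 48.4% for the Otx2 start shown and 50.8% for Sox4, beside a median of 52.4% over all promoters. The other Sall2 start had 64.4%.

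At E5.75 all 4 genes were higher on average in sections 1 to 8 than in sections 10 to 19, and their levels dropped at different places. Otx2, Sox4 and Sall2 dropped most between sections 8 and 10, where genes of the extraembryonic ectoderm set in. Pou3f1 ran on without a drop through sections 10 to 12 and dropped after them. The profiles of the 4 genes by section show both patterns.

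**Figure D1:**
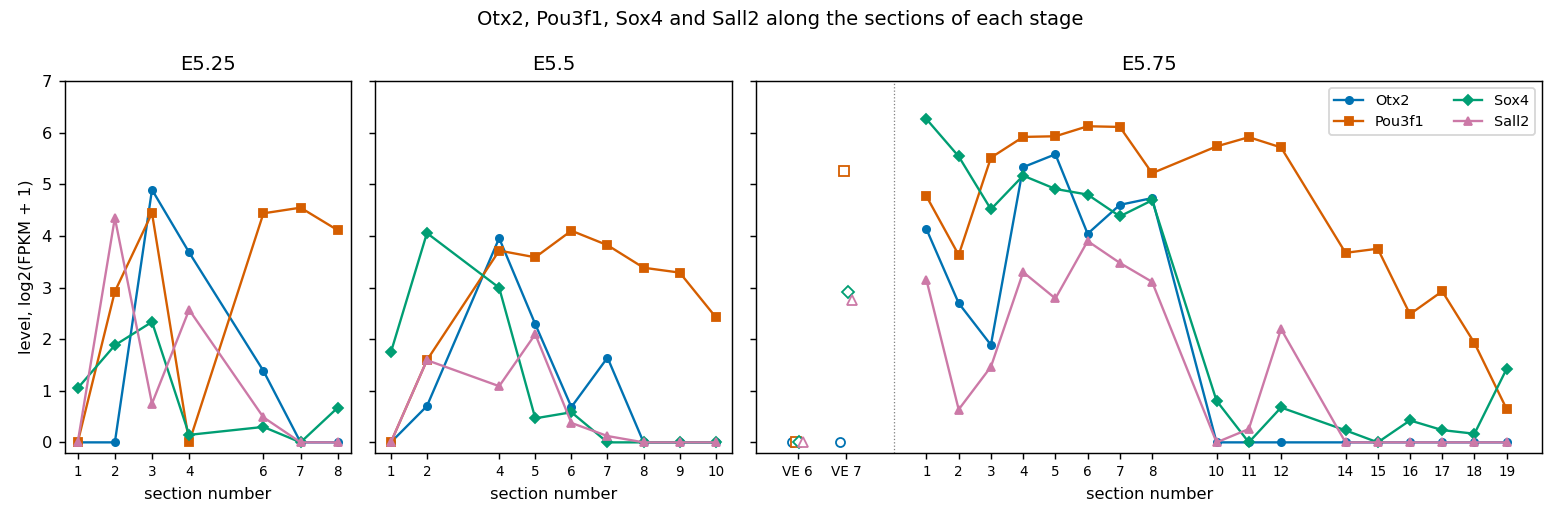
Levels of Otx2, Pou3f1, Sox4 and Sall2 as log2(FPKM + 1) against section number in each of the 3 stages, with 1 point a section; open symbols at the left of the E5.75 panel are the VE libraries of sections 6 and 7. At E5.75 Otx2 is listed at 0 from section 10 on, while Pou3f1 stands between 5.71 and 5.91 in sections 10 to 12.

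Otx2 stood at 4.13, 2.70, 1.89, 5.33, 5.58, 4.04, 4.60 and 4.73 in sections 1 to 8 of E5.75. It was listed at 0 in each of the 9 sections from 10 to 19. Its highest level, in section 5, was an FPKM of 46.9, above 95.3% of the genes of that section. The sections thus fell into 2 sets that did not overlap, 0 throughout sections 10 to 19 against a mean of 4.13 ± 1.27 in sections 1 to 8 (SD, n = 9 and 8). Of 11149 genes tested, 44 had all of sections 10 to 19 below all of sections 1 to 8, which is 0.395%.

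Sox4 was the highest of the 4 genes in sections 1 and 2, at 6.26 and 5.54. It stood between 4.38 and 5.17 in sections 3 to 8. In section 10 it was at 0.81, and from section 11 to 19 it read 0, 0.68, 0.23, 0, 0.43, 0.24, 0.17 and 1.43. Sections 10 to 19 averaged 0.44 ± 0.46, against 5.03 ± 0.62 in sections 1 to 8 (SD, n = 9 and 8), without overlap. Sox4 was the only one of the 4 with its highest E5.75 level in section 1, at an FPKM of 75.8.

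Sall2 was the lowest of the 4 on average in sections 1 to 8, at 3.15, 0.64, 1.46, 3.30, 2.79, 3.90, 3.48 and 3.11. From section 10 on it was listed at 0 in 7 of 9 sections, with 0.26 in section 11 and 2.20 in section 12. The value of section 12 lay above those of sections 2 and 3, so these sets overlapped. They averaged 0.27 ± 0.73 in sections 10 to 19 and 2.73 ± 1.11 in sections 1 to 8 (SD, n = 9 and 8).

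Pou3f1 was at 4.77 and 3.63 in sections 1 and 2 and between 5.21 and 6.12 in sections 3 to 8. It was at 5.73, 5.91 and 5.71 in sections 10, 11 and 12. From section 14 to 19 it read 3.67, 3.75, 2.48, 2.93, 1.92 and 0.64. Blocks of sections, drawn after the values were seen, give the shape without a test. The level was 5.79 ± 0.11 in sections 10 to 12 and 5.80 ± 0.36 in sections 3 to 8 (SD, n = 3 and 6), then 3.30 ± 0.71 in sections 14 to 16 and 1.83 ± 1.14 in sections 17 to 19 (SD, n = 3 each).

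Sections 10 to 12 carried the extraembryonic ectoderm program beside this Pou3f1. All 12 genes of the extraembryonic ectoderm list reached an FPKM of 1 in each of these sections, with summed FPKM of 805, 686 and 491, against 2 genes and 9.02 in section 8. Tfap2c, a trophoblast transcription factor, averaged 5.94 ± 0.13 in sections 10 to 12 and 0.46 ± 0.55 in sections 3 to 8 (SD, n = 3 and 6). Elf5, another, averaged 5.01 ± 0.52 and 0.28 ± 0.61 in the same sections. Sox2, which acts in both epiblast and extraembryonic ectoderm, also dropped after section 12, with 4.67 ± 0.29 in sections 10 to 12 and 0.35 ± 0.60 in sections 14 to 16 (SD, n = 3 each), where Pou3f1 was still at 3.30. Pou5f1 (Oct4), restricted to the epiblast at this age, averaged 2.12 ± 1.91 in sections 10 to 12 and 7.13 ± 0.32 in sections 3 to 8 (SD, n = 3 and 6). Each section pools many cells, so a lower level cannot be split into fewer cells of a type and less RNA per cell.

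**Figure D2:**
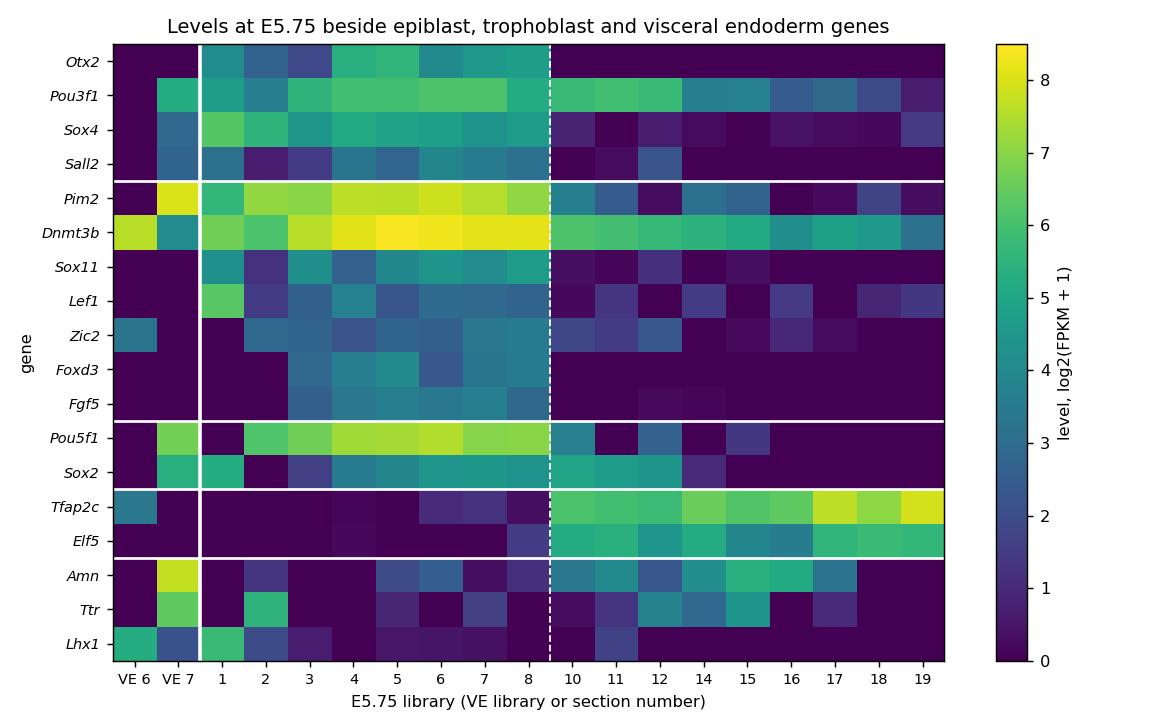
Levels at E5.75 as log2(FPKM + 1), with a column for each VE library and each section and a row for each gene: the 4 transcription factors, 7 formative and primed genes that fell, Pou5f1 and Sox2, trophoblast Tfap2c and Elf5, and Amn, Ttr and Lhx1 of the visceral endoderm. The dashed line lies between sections 8 and 10, where Otx2, Sox4 and Sall2 drop most and Tfap2c and Elf5 begin; Sall2 has a further value of 2.20 in section 12, and Pou3f1 and Sox2 run past the line.

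A line was fitted to each gene against section number, and a change is the fitted difference from first to last section (log2 scale, ± SE). All 4 genes fell at E5.75 over the 17 sections. The changes were -6.55 ± 0.84 for Sox4 (adjusted p = 1.45e-05), -5.38 ± 1.02 for Otx2 (adjusted p = 0.000847), -3.62 ± 0.88 for Pou3f1 (adjusted p = 0.0061) and -3.28 ± 0.83 for Sall2 (adjusted p = 0.00786), with limma and Benjamini-Hochberg adjustment over all genes tested. Of all genes tested 2.07% fell and 18.9% rose, with a median change of 0.80. Quantile normalization brought that median to 0.16 and the split of calls to 845 that rose and 500 that fell, against 2108 and 231. Relative to the median of all genes the changes were -7.35 for Sox4, -6.19 for Otx2, -4.43 for Pou3f1 and -4.09 for Sall2, and -6.94, -5.96, -4.35 and -4.25 after quantile normalization. Sox4 had the 7th and Otx2 the 10th most negative change of 11149. Otx2 reached an FPKM of 1 only in sections 1 to 8. Sox4 and Sall2 did so in just 1 section beyond them, Sox4 in section 19 and Sall2 in section 12, with 2 needed to pass the filter on low values. These 3 genes thus entered the test through the sections where they are high and had to differ, so their calls are no further support. Pou3f1 passed the filter on either side. With sections 10 to 19 set against sections 1 to 8 in place of the line, Pou3f1 changed by -1.76 and did not pass (adjusted p = 0.0762).

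Among sections 1 to 8 alone no trend passed for any of the 4 genes. The fitted changes were 1.70 ± 1.26 for Otx2, 1.45 ± 1.01 for Pou3f1, -1.35 ± 0.95 for Sox4 and 1.73 ± 1.22 for Sall2 (adjusted p = 0.380, 0.354, 0.355 and 0.357, limma). The background there was 0% of 8751 genes called, with 2394 genes at an unadjusted p under 0.05 and 17 called without the trend in the variance. Without section 3, 453 genes passed, and without section 8, 36. Section 1 stood apart in some markers. It had no Pou5f1 listed and a summed FPKM of 616 over the 15 genes of the visceral endoderm list, against 135 in section 2 and 1.82 to 58.6 in sections 3 to 8. Only 5 of those 15 genes reached an FPKM of 1, as in section 2. On the epiblast list 7 of 12 genes did so, with Sox2 at 5.26. Over all genes its summed FPKM was 659683, against 169792 to 247525 in sections 2 to 8, so these sums are not on one scale. Lhx1, a gene of the anterior visceral endoderm, had an FPKM of 52.9 in section 1. Otx2, Sox4 and Sall2 were all present there, at 4.13, 6.26 and 3.15, and the part of visceral endoderm RNA in these values was not tested.

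Over sections 10 to 19 alone the fitted change of Pou3f1 was -5.12 from first to last. These sections were chosen after its drop beyond section 12 was seen, so the value is a description with no test.

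At E5.5 Otx2, Sox4 and Sall2 had their highest values in sections 2 to 5, and Pou3f1 held a level from section 4 to section 9. Otx2 was listed at 0 in section 1 and stood at 0.70, 3.96, 2.29, 0.68 and 1.64 in sections 2, 4, 5, 6 and 7. It was listed at 0 from section 8 on. Its peak of an FPKM of 14.5 in section 4 was above 94.8% of the genes of that section.

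Sox4 at E5.5 read 1.74, 4.05 and 3.0 in sections 1, 2 and 4, then 0.47 and 0.58 in sections 5 and 6, and 0 from section 7 on. Sall2 read 0, 1.59, 1.09, 2.09, 0.38 and 0.12 in sections 1, 2, 4, 5, 6 and 7 and was listed at 0 after them. Sox4 and Otx2 thus had their largest drop between sections 4 and 5, and Sall2 between sections 5 and 6.

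Pou3f1 at E5.5 was listed at 0 in section 1 and at 1.59 in section 2. It then held at 3.72, 3.59, 4.10, 3.82, 3.38 and 3.29 in sections 4 to 9. The 2 columns of section 10 gave 3.17 and 1.68, a difference of 1.5, where the median absolute difference between these columns was 0.57 over 7588 genes. Sections 6 to 9, where 11 or 12 of the 12 extraembryonic ectoderm genes reached an FPKM of 1, thus kept a Pou3f1 level between 3.29 and 4.10. In sections 2 and 4, 1 of those 12 genes did so, with 5 in section 1 and 6 in section 5.

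Only Sox4 passed the test at E5.5, where it fell by 3.48 ± 0.90 over the 9 section numbers (adjusted p = 0.00939, limma). It reached an FPKM of 1 only in sections 1, 2 and 4, so it too entered the test through the sections where it is high. Otx2 changed by -1.11 ± 1.11, Sall2 by -1.11 ± 0.71 and Pou3f1 by 2.21 ± 1.09 (adjusted p = 0.446, 0.229 and 0.129). Of 8251 genes tested 2.61% fell and 28.3% rose, with a median change of 1.22, and after quantile normalization 844 genes rose and 324 fell, against 2332 and 215, with a median of 0.44. Relative to the median Pou3f1 changed by 0.99 and Sox4 by -4.69, and Pou3f1 ranked 5974th from the most negative change. More genes were detected from section 6 on than before it in this stage, and with detected genes as a covariate Sox4 changed by -4.27 and no longer passed (adjusted p = 0.829). Without the poor sections 1 and 2, Otx2 fell by 5.51 and passed (adjusted p = 0.0302, limma), and Pou3f1 took a negative sign, at -1.67. Sox4 did not pass the filter on low values in that fit and was not tested there. Without section 1 alone Sall2 passed, at -2.25 (adjusted p = 0.0429), while Pou3f1 was at 0.55 and Otx2 at -2.68 and did not pass. Otx2 reached an FPKM of 1 only in sections 4, 5 and 7, and Sall2 only in sections 2, 4 and 5. Both genes entered these fits through the sections where they are high, so their passes are no further support. Otx2 was at -0.43 without section 4 and at -0.72 without section 10, where Pou3f1 was at 3.35 (adjusted p = 0.0562).

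Signs of RNA quality moved with section number in the same libraries. Rn45s, the precursor of ribosomal RNA, fell by 5.45 ± 0.56 at E5.5 (adjusted p = 0.000251, limma). It took 69.8% of the summed FPKM in section 1 and 56.4% in section 2, against 2.36% and 2.80% in the columns of section 10. The common genes Eef1a1, Hprt, Actb and Gapdh all rose there (4.59 ± 0.97, 3.90 ± 0.83, 2.93 ± 0.64 and 5.99 ± 1.61). At E5.25 Rn45s fell by 5.40 ± 0.91 (adjusted p = 0.0307), and at E5.75 its change of -1.46 ± 0.75 did not pass (adjusted p = 0.165, limma). At E5.75 it still took 52.8% of the summed FPKM in section 1, 62.2% in VE 6 and 48.8% in VE 7. In the other E5.75 sections it took 2.88% to 16.4%. The part of RNA quality in the values of the 4 genes was not tested.

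At E5.25 levels were patchy from one section to the next. Otx2 was listed at 0 in sections 1, 2, 7 and 8 and stood at 4.89, 3.68 and 1.39 in sections 3, 4 and 6. Sall2 reached 4.35 in section 2 and 2.57 in section 4, with 0.75 in section 3, 0.48 in section 6 and 0 elsewhere. Sox4 was low throughout, at 1.05, 1.88, 2.33, 0.15, 0.30, 0 and 0.67 from section 1 to 8.

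Pou3f1 at E5.25 was listed at 0 in sections 1 and 4, with 2.92 in section 2 and 4.44 in section 3 beside them. It was steady at 4.44, 4.55 and 4.11 in sections 6, 7 and 8. All 12 extraembryonic ectoderm genes reached an FPKM of 1 in each of these last sections, and 1 or 2 of them in sections 1 to 4. On the epiblast list 9, 5 and 5 of 11 genes did so in sections 6, 7 and 8. In sections 1 to 4 the counts on that list were 3, 6, 9 and 8. Section 4, with no Pou3f1 listed, had the fewest genes detected of the stage, 2046, yet held Otx2 and Sall2.

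None of the 4 genes passed the test at E5.25. The changes were -1.07 ± 1.65 for Otx2, 3.34 ± 1.79 for Pou3f1, -1.46 ± 1.01 for Sox4 and -2.01 ± 1.37 for Sall2 (n = 7 sections, limma adjusted p = 0.663, 0.183, 0.295 and 0.288). Of 7148 genes tested 0.406% passed in either direction and the median change was 1.45. Leaving out section 1 moved Otx2 to -3.02, Pou3f1 to 2.05 and Sall2 to -4.16, and Otx2 was at -2.09, -0.11, -0.44 and -0.12 without sections 2, 3, 7 and 8 in turn. Without sections 1 and 2 Otx2 was at -7.35, and none of these passed. That count of 29 became 3 without section 6 and 818 without section 4, and these 7 sections leave wide errors on each gene.

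**Figure D3:**
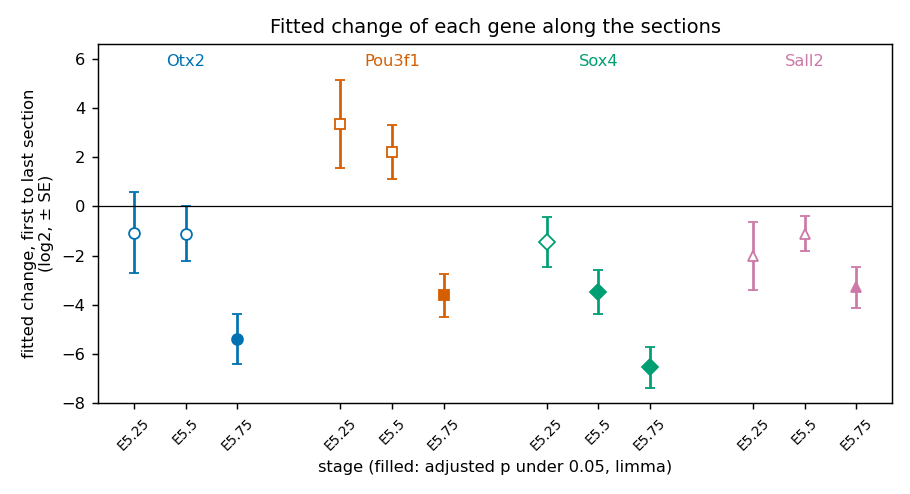
Fitted change from first to last section (log2, vertical axis) for each of the 4 genes in each stage; bars are ± 1 SE and filled symbols have an adjusted p under 0.05 in limma. All 4 genes are below 0 at E5.75, and Pou3f1 is above 0 at E5.25 and E5.5 with errors that kept it from passing.

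The tables were normalized separately, so levels were not compared between stages, and only the slopes were. The largest differences were those of Pou3f1. Its slope differed by -6.96 ± 1.75 between E5.75 and E5.25 and by -5.83 ± 1.49 between E5.75 and E5.5, and neither passed (adjusted p = 0.0886 and 0.0536, limma, n = 24 and 26 sections). Of all genes tested 0.173% and 0.75% passed in these comparisons, which share the E5.75 sections. For Sox4 the differences were -5.09 ± 1.42 and -3.07 ± 1.37, for Otx2 -4.31 ± 2.0 and -4.27 ± 1.71, and for Sall2 -1.27 ± 1.58 and -2.17 ± 1.28 in the same order (adjusted p between 0.111 and 0.831). Between E5.5 and E5.25 the differences lay between -2.02 ± 1.34 for Sox4 and 0.90 ± 1.56 for Sall2 (adjusted p of at least 0.848), with 0% of 8732 genes passing and 584 at an unadjusted p under 0.05.

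The Pou3f1 slope difference stood near the threshold, and leaving out a single section could take it over or further from passing. Against E5.25 it passed without section 3 or 4 of E5.25 (-7.62 and -6.73, adjusted p = 0.0213 and 0.0456) and without section 1 or 2 of E5.75 (-7.49 and -7.70, adjusted p = 0.0311 and 0.0360). Against E5.5 it passed without section 4, 5 or 10 of E5.5 (-6.15, -5.92 and -6.98, adjusted p = 0.0282, 0.0491 and 0.0271). It also passed there without section 1, 2, 11 or 12 of E5.75 (-6.36, -6.57, -5.89 and -5.95, adjusted p = 0.0110, 0.0112, 0.0498 and 0.0448). In the other single-section fits it did not pass. It was furthest from passing without section 1 of E5.25 (-5.68, adjusted p = 0.293, limma) and without section 1 of E5.5 (-4.17, adjusted p = 0.574, limma). These 2 sections had Pou3f1 listed at 0 and were poor in detected genes, with 2607 and 2288. With detected genes as a covariate the slope difference passed against both stages (-6.62 and -5.51, adjusted p = 0.0103 and 0.00491). Over the single-section fits it ran between -7.70 and -5.68 against E5.25 and between -6.98 and -4.17 against E5.5.

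**Figure D4:**
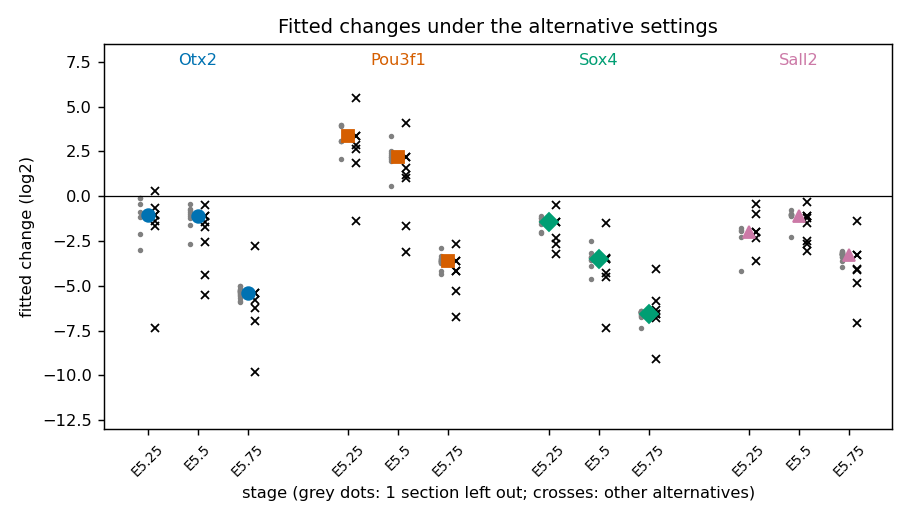
Fitted change (log2, vertical axis) of each gene at each stage under the alternative settings: large symbols are the values given in the text, grey dots leave out 1 section each, and crosses are the other alternatives. Every point of Otx2, Sox4, Sall2 and Pou3f1 at E5.75 is below 0, while Pou3f1 at E5.25 and E5.5 and Otx2 at E5.25 have points on both sides.

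The VE libraries of E5.75 did not behave alike. Otx2 was listed at 0 in both of them, against 4.04 and 4.60 in sections 6 and 7. Pou3f1 was at 0 in VE 6 and 5.26 in VE 7, against 6.12 and 6.11 in sections 6 and 7. Sox4 was at 0 and 2.91 in VE 6 and VE 7, against 4.80 and 4.38, and Sall2 at 0 and 2.76, against 3.90 and 3.48.

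The differences, VE minus sections, were -4.32 ± 0.36 for Otx2, -3.49 ± 2.22 for Pou3f1, -3.13 ± 1.26 for Sox4 and -2.31 ± 1.17 for Sall2 (2 against 2, limma adjusted p = 0.00494, 0.293, 0.129 and 0.201). Otx2 passed, but 56.6% of 6413 genes were lower in VE by the same rule and the median difference of all genes was -2.09. It entered the test only through sections 6 and 7, and both VE libraries were poor in detected genes, so the call is no support for a difference in tissue. With quantile normalization the Otx2 difference was -2.88 and did not pass (adjusted p = 0.0639).

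Leaving out VE 7 gave -6.12 for Pou3f1, -4.59 for Sox4 and -3.69 for Sall2. These 3 genes are listed at 0 in VE 6. They entered that fit only through sections 6 and 7 and had to be lower in VE. Leaving out VE 6 gave -0.86 for Pou3f1, -1.68 for Sox4 and -0.93 for Sall2. A fit with a library left out has a single library in 1 group and filters the genes anew. Only the differences are therefore given.

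The markers of the VE libraries went with this. VE 7 held the endoderm genes Amn at 7.71 and Ttr at 6.44, and with them Pou5f1 at 6.73 and Pim2 at 8.02. Amn, Ttr, Pou5f1 and Pim2 were all listed at 0 in VE 6, which had Lhx1 at 5.26 and Gata6 at 5.12. On the epiblast list, 2 of 12 genes reached an FPKM of 1 in VE 6 and 7 of 12 in VE 7, against 11 and 12 in sections 6 and 7. Its summed FPKM was 262 and 321 in VE 6 and VE 7, against 457 and 418. On the visceral endoderm list, 6 and 7 of 15 genes did so in VE 6 and VE 7, against 7 and 6, with summed FPKM of 306 and 1111, against 58.6 and 49.1. Over all genes the summed FPKM was 783605 and 451155 in VE 6 and VE 7, against 211036 and 215370. The sums of both lists are thus not on one scale between VE libraries and sections. The part of epiblast RNA in the Pou3f1, Sox4 and Sall2 values of VE 7 was not tested.

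How alike the 4 genes were was described by correlations over the 17 sections of E5.75, which share libraries and detection and carry no test. Otx2 went most closely with Sox4 (Pearson r = 0.907, Spearman rho = 0.821) and with Sall2 (r = 0.885, rho = 0.841). Sox4 and Sall2 followed (r = 0.792, rho = 0.712). Pou3f1 was less like the others, with r of 0.677 to Sall2, 0.559 to Otx2 and 0.455 to Sox4 (rho = 0.754, 0.581 and 0.338).

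The genes most like each of the 4 were taken among 4217 genes with a mean FPKM of at least 5. For Otx2 they were Rragd, a Rag GTPase of mTORC1 signalling (r = 0.975), 2410007B07Rik (0.925), Gm16880 (0.911), Qser1 (0.901) and the serine/threonine kinase Pim2 (0.882). For Sox4 they were 2410007B07Rik (0.973), Mtap7d3 (0.937), the chromatin protein gene Dek (0.931), Tcea3, of the TFIIS elongation factor family (0.923), and 2810417H13Rik (0.916). For Sall2 they were Gm16880 (0.913), Sox11 (0.901), Rragd (0.872), 2810417H13Rik (0.856) and the DNA methyltransferase Dnmt3b (0.845). These 3 lists overlapped, and 2410007B07Rik, nearest to Sox4 and next to nearest to Otx2, stood between 0 and 0.35 in sections 10 to 19, against 4.04 to 5.74 in sections 1 to 8.

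Pou3f1 had a set of its own, apart from Dnmt3b (0.858), which it had in common with Sall2. Its nearest were Dusp6, an ERK phosphatase induced by FGF signalling (0.894), and Lin28a, an RNA-binding protein that blocks let-7 maturation (0.891). Dppa4 (0.845) and Sox2 (0.838) completed it. Dnmt3b averaged 5.91 ± 0.23 in sections 10 to 12 and 8.13 ± 0.29 in sections 3 to 8, and 4.96 ± 0.66 in sections 14 to 16 (SD, n = 3, 6 and 3).

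The relatives of the 4 genes were not all alike. Sox11, the SOXC partner of Sox4, fell by 4.67 ± 0.90 at E5.75 (adjusted p = 0.00099, limma). It stood at 1.16 or lower in sections 10 to 19, against 1.25 to 4.71 in sections 1 to 8. Sox11 peaked at 2.86 in section 4 of E5.5 and was at 0.28 or lower from section 6 on, and at E5.25 it peaked at 3.10 in section 4. Its changes there did not pass (-1.38 ± 0.90 and -2.10 ± 1.24, adjusted p = 0.238 and 0.225). Sox12, the third SOXC gene, never went above 2.16 at E5.75 (-0.95 ± 0.54, adjusted p = 0.206) or 0.93 at E5.5, and had no entry at E5.25.

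Sall4, the spalt factor of pluripotent cells, did not take the course of Sall2. It stood between 3.18 and 4.94 in sections 10 to 19 of E5.75, against 2.95 to 5.46 in sections 1 to 8, with a change of 0.17 ± 0.67 (adjusted p = 0.881, limma). At E5.5 Sall4 rose by 3.09 ± 1.07 (adjusted p = 0.0380), and the value was 0 in the poor sections 1 and 2. Sall1 reached 3.46 in section 3 of E5.75 without a trend that passed (-0.57 ± 0.85, adjusted p = 0.652). Sall3 was listed only at E5.75, with 2.25 in section 3 and at most 0.58 elsewhere.

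Of the POU genes, Pou3f2 had an entry at E5.25 and E5.5 only, with 3.54 in section 2 of E5.25 and at most 1.11 elsewhere. Pou2f1 (Oct1), an octamer-binding factor of most cells, lay between 0.14 and 2.01 in the E5.75 sections (0.20 ± 0.54, adjusted p = 0.816, limma). Pou2f1 read 5.10 in VE 7 and 0 in VE 6. Otx1 and Pou3f3 had no entry in any table.

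The wider list of formative and primed genes, 21 besides the 4 above and drawn up with earlier results of these data known, fell in part at E5.75. Of 21 tested, 7 fell, none rose and 14 did not pass, with a median change of -1.77 beside 0.80 over all genes, of which 2.07% fell and 18.9% rose. Genes such as Foxd3 and Fgf5, listed at or near 0 in sections 10 to 19, again entered the test through the low-numbered sections. Those that fell were Pim2 (-8.15 ± 1.06), Sox11, Dnmt3b (-4.02 ± 0.73), Lef1, a mediator of WNT signalling (-3.48 ± 0.87), Foxd3 (-2.77 ± 0.96), the growth factor Fgf5 (-2.69 ± 0.94) and Zic2 (-2.54 ± 0.79). Fgf5, the classical marker of the primed epiblast, averaged 0.07 ± 0.13 in sections 10 to 12 and 3.26 ± 0.44 in sections 3 to 8 (SD, n = 3 and 6). Like Otx2, it dropped between sections 8 and 10. Unlike Otx2, at 4.13 and 2.70 there, Fgf5 was listed at 0 in sections 1 and 2.

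Other lists at E5.75 are read beside the same shares of all genes, 2.07% that fell and 18.9% that rose. Of 12 epiblast genes 8 fell, 1 rose and 3 did not pass, with a median change of -3.20. Pou5f1 (-7.16 ± 1.54) and Igfbp2 (-6.85 ± 1.18) fell most, and Trap1a rose by 7.86 ± 0.96. Of 12 extraembryonic ectoderm genes 9 rose and none fell, with a median of 4.15, and of 10 ectoplacental cone genes 9 rose and none fell, with a median of 6.06. Of 8 naive pluripotency genes tested 3 rose, Zfp42 (5.40 ± 0.82), Klf5 (3.15 ± 0.74) and Klf2 (2.59 ± 0.72), and none fell. Of 14 visceral endoderm genes only Cited1 rose (3.46 ± 1.11).

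Genes of the anterior and distal visceral endoderm, where Otx2 also acts, gave a mixed result at E5.75. Of 6 tested, Nrp2 rose (1.90 ± 0.49), and Lhx1 (-2.41 ± 0.83) and Fzd5 (-1.82 ± 0.63) fell. Of 5 primitive streak genes Fgf8 (-2.51 ± 0.67) and Lhx1, which is on both lists, fell, and 1 early neural gene was tested and did not pass. Of 5 decidua genes 4 rose, led by Cryab (5.69 ± 1.02), so genes of this maternal tissue list rose along the sections in which the 4 factors fell. Of 5 genes kept as a check on RNA amount only Actb rose (1.56 ± 0.51). The part of these tissues in the falls of the 4 genes was not tested.

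The wider list was also counted at the earlier stages. At E5.5, of 17 formative and primed genes tested, the cadherin Cdh2 (-4.43 ± 1.17) and Tcf15 (-2.68 ± 0.95) fell, Sall4 rose and 14 did not pass, with a median of 0.09 beside 1.22 over all genes, of which 2.61% fell and 28.3% rose. Of 10 epiblast genes Trap1a (6.23 ± 1.32) and L1td1 (2.76 ± 1.0) rose, a share no higher than that of all genes. At E5.25 none of 15 formative and primed genes and none of 10 epiblast genes passed, beside 0.406% of all genes, with medians of -0.22 and 0.07 beside 1.45.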

How the data were processed

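RNA of laser-captured sections was sequenced with Smart-seq2, as the labels' protocols give it. Build mm10, Cufflinks 2.0.2 and TopHat2 2.0.4 are named in the submitters' processing notes, and other steps are not given in the sources used here. The authors deposited 1 table a stage on a log2 scale, read here as log2(FPKM + 1) from the table names and the values, which start at 0. The tables held 10176, 13060 and 13618 genes, and no column of values was left out. Columns 10 and 11 of E5.5 were averaged as parts of section 10, as the titles say, though a source name gives section 11.

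Genes at an FPKM of 1 or more in 2 or more libraries were fitted with limma 3.58.1 under R 4.3.3 (eBayes, variance trend). Tests were 2-sided and p-values were adjusted by Benjamini-Hochberg over all genes tested, with a threshold of 0.05. Section number was rescaled to run between 0 and 1. Joint fits with a level for each stage gave slope differences. Fits were tested on simulated data. Fewer counts behind a value mean more error, but depth is unknown, so no interval for counting error is given.

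The 4 genes, the lists and the tests were chosen with earlier results of these data known. Named beside the 4 genes were the 5 genes most like each at E5.75, family relatives, and, of each list, those of smallest p. The shared section numbers of the VE and section libraries are positions, and with 2 pairs no pairing could be shown (r = 0.000773 between the deviations of the section 6 libraries over 6413 genes). Python 3.11.15 and matplotlib 3.10.9 drew the figures.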

Additional observations from a re-analysis of the deposited data

How the results depend on the processing

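At E5.75 Otx2, Sox4 and Sall2 fell and passed in all 25 alternatives (adjusted p of at most 0.00502, 0.00386 and 0.0218, limma), but they passed the filter through the sections where they are high, so this adds no support. Pou3f1 passed in 25 of 26, the exception being sections 10 to 19 set against sections 1 to 8, at -1.76. The 25 include the fit over sections 10 to 19 alone. That fit was chosen after the drop of Pou3f1 was seen, so its pass adds no support. The alternatives were pseudocounts of 0.1 and 5, no filter, quantile normalization, eBayes without trend, detected genes as a covariate, a low-against-high contrast in place of the line, fewer sections, and omission of single sections. Where a value moved the cause was not tested. No count of reads is known, so the error of low values is unknown as well, and the number of embryos in a stage is not stated.

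Of the single genes, the covariate gave 0.27 for Otx2 and -1.37 for Pou3f1 at E5.25, -3.10 for Pou3f1 and -4.27 for Sox4 at E5.5, and -1.35 for Pou3f1 within sections 1 to 8 of E5.75. At E5.5 without the 2 lowest sections Otx2 was -5.51 and Pou3f1 -1.67, and Sall2 ran between -2.25 and -0.77 with a section left out. In the VE comparison quantile normalization gave -2.88 for Otx2, and leaving out a library gave -6.12 to -0.86 for Pou3f1, -4.59 to -1.68 for Sox4 and -3.69 to -0.93 for Sall2. With the section number as a replicate block the Otx2 difference was -4.32 (adjusted p = 0.0216) and 3800 genes passed, against 3671, and the block changed no call of the 4 genes.

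For the slope difference of E5.75 and E5.25, Sox4 was -3.55 with a pseudocount of 5 (adjusted p = 0.0490), Pou3f1 -6.92 with quantile normalization and -6.62 with the covariate, and leaving out a section gave -7.70 to -5.68 for Pou3f1 and -2.69 to 0.87 for Sall2. For E5.75 and E5.5, Pou3f1 was -8.25 with a pseudocount of 0.1, -5.83 without trend (adjusted p = 0.0490), -5.51 with the covariate and -6.98 to -4.17 with a section left out. For E5.5 and E5.25, Otx2 was 0.19 with a pseudocount of 5, and leaving out a section gave -1.61 to 1.91 for Otx2, -2.79 to 0.15 for Pou3f1 and -0.52 to 3.05 for Sall2.

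Counts of genes passing moved as follows. At E5.25 the 29 became 1006 and 0 with pseudocounts of 0.1 and 5, 514 without trend, 0 with no filter, with quantile normalization and with the covariate, 1476 with the low-against-high contrast, 18 without the 2 lowest sections, and 3 (without section 6) to 818 (without section 4) with a section left out. At E5.5 the 2547 became 1168 with quantile normalization, 0 with the covariate and 309 without the 2 lowest sections. At E5.75 the 2339 became 1345, 624 and 1407 in the same settings, 1397 with the low-against-high contrast and 166 over sections 10 to 19, which was added after the data were seen. Within sections 1 to 8 the 0 became 17 without trend and 0 to 453 with a section left out. The 3671 of the VE comparison became 0 with quantile normalization and 2 to 5624 with a library left out. For E5.75 and E5.25, 16 slope differences became 42 with a pseudocount of 0.1, 100 with quantile normalization, 6 without trend, 33 with the covariate and 0 to 123 with a section left out. For E5.75 and E5.5, 81 became 125 with a pseudocount of 0.1, 153 with the covariate and 2 to 367 with a section left out. For E5.5 and E5.25 the count was 0 or 1 with a section left out.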
